A study of Mus musculus with 384 samples.

Results

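Gata3, Il1rl1, Areg, Klrg1, Rora, Pparg, Il18r1 and Cd81 are 8 of the 50556 gene symbols in the deposited matrix. They were chosen by name, as genes associated with the tissue-repair state of regulatory T (Treg) cells, and all 8 were found under these symbols. Their detection, their level and their detection together were followed cell by cell in ear-skin Treg cells of mice, by plate and by treatment, and in wells that held 10 cells. None of the 8 was called different between treatments by edgeR's quasi-likelihood test, which called 0 of 14462 genes. DESeq2 called Gata3 and Il18r1, along with 25.9% of all genes. Gata3 was detected in 46.4% of imiquimod cells and 42.2% of vehicle cells by the mean of plates, which overlapped, while Il1rl1, Areg, Rora, Pparg, Il18r1 and Cd81 were detected in a smaller share of cells on both imiquimod plates than on either vehicle plate. That order was shared by 54.7% of the genes detected in at least 10% of kept cells.

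Treg cells are CD4 T cells that express the transcription factor Foxp3 and hold other immune cells in check. In skin, fat, muscle and lung, a share of them carries the interleukin-33 receptor, depends on the transcription factor GATA3 and secretes amphiregulin, a growth factor that acts on epithelial and stromal cells. Interleukin-33 is an alarmin released by damaged barrier cells, and its receptor chain ST2 is the product of Il1rl1.

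The imiquimod group was ear skin treated topically with 5% imiquimod, a Toll-like receptor agonist that gives a psoriasis-like inflammation in mice, and the vehicle group was ear skin treated with vehicle alone. Cells labelled regulatory T cell were sorted into wells on day 3, from 2 mice per treatment, and neither strain, age nor sex of the mice nor the sort gate is given in the labels. Each treatment has 2 plates, named imiquimod plates 1 and 2 and vehicle plates 1 and 2 here. Each plate has 87 single-cell wells. A further 16 wells held 10 cells each and 20 were left empty, and neither kind carries a treatment in its labels. No label ties a plate to a mouse, so the plate is the replicate, p-values measure the spread between plates, which may be technical, and plate and treatment cannot be told apart beyond that spread.

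Single-cell wells were kept from 500 detected genes and 10000 counts upward, a filter that 38 and 44 cells on the imiquimod plates and 62 and 58 on the vehicle plates passed, 202 in all. Kept cells held 47481 to 5946386 counts. Their median number of detected genes was 975 and 1093 on the imiquimod plates, against 1040.0 and 1503 on the vehicle plates. Foxp3 had a count in 75 of the 202 cells (37.1%). All 8 T cell markers and all 7 Treg markers of the lists used had a count somewhere among the kept cells. So did all 5 fibroblast and all 3 endothelial markers. T cell markers had a count in 25 (Cd3d and Cd3g) to 64 cells (Lck), and Treg markers in 58 (Ctla4 and Tnfrsf4) to 120 cells (Ikzf2). Of 8 mast cell markers, 6 were at 0 in every kept cell, namely Mcpt4, Cma1, Tpsb2, Tpsab1, Fcer1a and Ms4a2. The other two were Kit, with a count in 35 cells, and Cpa3, in 4, and the list summed to 4.501 and 6.42 CPM (counts scaled to the size of the library) on the imiquimod plates, and to 273 and 116 CPM on the vehicle plates. Lists of endothelial, neutrophil and fibroblast markers reached at most 433, 395 and 351 CPM, each on vehicle plate 2. The macrophage marker Adgre1 had a count in 60 cells, 8 of them at 10 CPM or more. The T cell list summed to 5155 and 2729 CPM on the imiquimod plates, and to 3845 and 3370 CPM on the vehicle plates. The Treg list summed to 9388 and 7760 CPM in imiquimod, and to 12890 and 10261 CPM in vehicle. Of 7 markers of group 2 innate lymphoid cells (ILC2), a cell type that also carries Il1rl1 and Gata3, Il5 was at 0 and Hlf had a count in 23 cells. The ILC2 list summed to 413 and 284 CPM on the imiquimod plates, and to 665 and 123 CPM on the vehicle plates.

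Il1rl1 encodes a receptor, and Gata3 a factor that binds GATA elements, so the start-site windows of Il1rl1 are shown beside that of Areg, the secreted product. Each window is the 250 bases before a start site from RefSeq on GRCm38.p6, which is not the mm39 build that the submitters aligned to. Capitals mark the GATA element AGATAA, searched on both strands (TTATCT on the other strand). The 12 windows of the group came from 7 of the 8 genes, and those of Il18r1 start sites 1 and 2 overlap. The GATA element was present in both Il1rl1 windows, 217 and 103 bases before the start. It was absent in the letters of the other 10 windows. Among 32851 windows of this length, 9.99% held it. Only AGATAA and its reverse were searched, and other sequences that hold GATA were neither counted nor marked. The AP-1 element TGANTCA, also searched on both strands, was in 0 of the 12 windows and in 6.75% of all windows.
Il1rl1 start site 1 (chr1:40429320-40429569, plus strand): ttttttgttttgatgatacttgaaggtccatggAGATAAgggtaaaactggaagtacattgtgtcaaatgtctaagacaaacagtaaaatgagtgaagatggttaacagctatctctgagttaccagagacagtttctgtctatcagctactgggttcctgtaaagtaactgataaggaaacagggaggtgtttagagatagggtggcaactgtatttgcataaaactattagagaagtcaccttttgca
Il1rl1 start site 2 (chr1:40439379-40439628, plus strand): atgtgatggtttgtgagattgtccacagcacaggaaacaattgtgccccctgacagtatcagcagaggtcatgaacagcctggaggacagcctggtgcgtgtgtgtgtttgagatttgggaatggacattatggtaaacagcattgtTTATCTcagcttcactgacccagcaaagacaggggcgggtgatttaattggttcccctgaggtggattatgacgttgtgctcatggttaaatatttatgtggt
Areg (chr5:91139349-91139598, plus strand): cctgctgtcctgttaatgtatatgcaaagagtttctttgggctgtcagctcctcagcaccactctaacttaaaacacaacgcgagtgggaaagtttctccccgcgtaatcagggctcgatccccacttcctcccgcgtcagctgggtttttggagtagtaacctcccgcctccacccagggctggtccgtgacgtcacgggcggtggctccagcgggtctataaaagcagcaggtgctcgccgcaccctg

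Gata3, the zinc-finger transcription factor of type 2 helper T cells and of tissue Treg cells, was detected in 89 of 202 kept cells. The share was 47.4% and 45.5% on the imiquimod plates, against 50.0% and 34.5% on the vehicle plates. The plates overlapped, with means of 46.4% ± 1.35 in imiquimod and 42.2% ± 11.0 in vehicle (SD, n = 2 plates each, exact two-sided permutation p = 1). Without vehicle plate 2 the difference turned from 4.17 to -3.59 percentage points. Of the 89 cells, 19 held less than 10 CPM, and 15 of these 19 were vehicle cells. Cells with 10 CPM or more made up 39.5% and 43.2% on the imiquimod plates, against 32.3% and 27.6% on the vehicle plates. At this threshold the imiquimod plates lay above both vehicle plates (41.3% ± 2.62 against 29.9% ± 3.30, exact p = 0.333, the smallest that 2 plates against 2 allow), as did 5.75% of the 1686 genes with 10 CPM in at least 10% of kept cells. After thinning each cell to 200000 counts the shares were 45.9% ± 3.81 in imiquimod and 37.9% ± 6.39 in vehicle, without overlap, against a background of 3.34% of 2604 genes.

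Among cells with Gata3, the median level was 1230 CPM on imiquimod plate 1 and 1340.2 CPM on imiquimod plate 2, and lower on vehicle plates 1 and 2 (116 and 552 CPM). The highest cell held 9815 CPM and lay on imiquimod plate 1. Summed over kept cells and scaled by TMM, Gata3 reached 2641 and 803 CPM on imiquimod plates 1 and 2, while vehicle plates 1 and 2 held 522 and 419 CPM. The imiquimod plates did not overlap the vehicle plates, and 13.7% of the 14462 genes tested showed the same order. In such sums fewer cells with the transcript and less transcript per cell cannot be told apart. The log2 fold change was 1.87 ± 0.75 (SE, edgeR adjusted p = 0.42). Called by edgeR at an adjusted p of 0.05 were 0 of 14462 genes (0%), with 1669 at an unadjusted p under 0.05, and DESeq2 called 3740 (25.9%), among them 2 of the 8 members, Gata3 (log2 fold change 2.46, DESeq2 adjusted p = 0.0128) and Il18r1. Without imiquimod plate 2, edgeR called 794 genes and Gata3 passed (2.59, adjusted p = 0.018), and without imiquimod plate 1 it called 215 and Gata3 did not pass (0.87, adjusted p = 0.606). In those fits the lone plate is assumed to vary like the plates of the other treatment. The median log2 fold change of all genes was -0.26 under TMM, so fold changes here are read against that shift.

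Rora encodes the nuclear receptor ROR alpha, which skin Treg cells of mice use to limit allergic inflammation, and it was detected most often, in 113 cells. Its share was 42.1% and 50.0% on the imiquimod plates, against 59.7% and 65.5% on the vehicle plates. Both imiquimod plates lay below both vehicle plates (46.1% ± 5.58 against 62.6% ± 4.13, exact p = 0.333). The same order held for 54.7% of the 4641 genes with a count in at least 10% of kept cells, and 85.1% of these genes had a lower mean share in imiquimod, with a median difference of -6.99 percentage points. The difference for Rora was -16.5 points. At 10 CPM or more it was 30.4% ± 2.03 in imiquimod and 50.7% ± 5.86 in vehicle, again without overlap, against a background of 52.4%. The summed level overlapped, with 1878 and 1571 CPM for the imiquimod plates beside 3055 and 1252 CPM for the vehicle plates. The fold change on the log2 scale was -0.32 ± 0.56 (edgeR adjusted p = 0.9). The sign of the fold change turned with DESeq2 size factors (0.15), without the highest cell of each plate (0.0228) and without vehicle plate 1 (0.40).

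Pparg, the nuclear receptor of lipid metabolism that marks Treg cells of mouse visceral fat, was rare. It had a count in 9 cells, 1 and 2 on the imiquimod plates against 3 and 3 on the vehicle plates. The highest of the 9 held 1456 CPM, on vehicle plate 1, and the median was 194 CPM. Summed levels were 14.3 and 12.9 CPM in imiquimod, against 17.5 and 9.46 CPM in vehicle, and overlapped. With so few cells the fold change was 0.01 ± 3.18, and its sign turned under 7 alternatives, among them library totals without scaling (-0.53).

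Il1rl1, the interleukin-33 receptor chain ST2, had a count in 55 cells. The share was 10.5% and 27.3% on the imiquimod plates, against 35.5% and 29.3% on the vehicle plates. Imiquimod plate 1 stood far below the other 3, with 4 of 38 cells, and both imiquimod plates lay below both vehicle plates (18.9% ± 11.8 against 32.4% ± 4.37, exact p = 0.333), as 54.7% of genes did. On imiquimod plate 1 a single cell carried 69.2% of the Il1rl1 counts. The summed level showed no such order, with 686 and 532 CPM in imiquimod against 608 and 347 CPM in vehicle, and the plates overlapped. The log2 fold change was 0.35 ± 0.91 (edgeR adjusted p = 0.939). It became -0.20 with library totals alone, -1.20 with cells thinned to 200000 counts and -1.23 in limma fitted to each plate's mean of log2(CPM + 1).

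Il18r1 encodes the ligand-binding chain of the interleukin-18 receptor. It was detected in few imiquimod cells, at a high level. A count was present in 4 and 3 cells on the imiquimod plates (10.5% and 6.82%), against 9 and 12 cells on the vehicle plates (14.5% and 20.7%). All 7 imiquimod cells held between 884 and 10354 CPM, while the medians of the vehicle cells were 76.3 and 96.0 CPM and their highest cell held 1590 CPM. Summed levels were 323 and 445 CPM in imiquimod, against 46.6 and 102 CPM in vehicle, without overlap (13.7% of genes). The log2 fold change was 2.37 ± 1.44 (edgeR adjusted p = 0.545). DESeq2 called it (2.79, adjusted p = 0.00841), and limma on the mean log2 level per cell gave -0.09.

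Areg, the secreted ligand amphiregulin of the epidermal growth factor receptor, had a count in 41 cells. The share was 15.8% and 9.09% on the imiquimod plates, against 24.2% and 27.6% on the vehicle plates. Both imiquimod plates lay below both vehicle plates (12.4% ± 4.74 against 25.9% ± 2.40, exact p = 0.333). On imiquimod plate 1 the 6 cells with Areg had a median of 2082 CPM, on imiquimod plate 2 the 4 cells had 903 CPM, and the medians were 334 and 405 CPM on the vehicle plates. Summed levels overlapped, at 775 and 167 CPM in imiquimod against 221 and 297 CPM in vehicle. The log2 fold change was 0.86 ± 1.17 (edgeR adjusted p = 0.848) and turned to -0.53 without imiquimod plate 1. Of the 20 wells without a cell, 1 held 819 counts of Areg (536 CPM), and it was also the 1 empty well that passed the filter on cells, with 885 genes. The other members were at 0 in all 20 empty wells, which allows up to 15.0% of such wells, except Rora with 1 count in each of 2.

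Klrg1, an inhibitory receptor of terminally differentiated T cells that binds cadherins, had a count in 36 cells. The share was 21.1% and 11.4% on the imiquimod plates, against 17.7% and 20.7% on the vehicle plates, and the plates overlapped. The mean difference of -3.01 points turned to 1.84 without imiquimod plate 2. Summed levels were 1168 and 124 CPM in imiquimod, against 167 and 134 CPM in vehicle, so imiquimod plate 1 stood apart and imiquimod plate 2 lay below both vehicle plates. On imiquimod plate 1 the highest cell held 19157 CPM and 41.3% of that plate's Klrg1 counts. The log2 fold change of 2.10 ± 1.24 (edgeR adjusted p = 0.526) became -0.17 without imiquimod plate 1 and 3.06 without imiquimod plate 2 (adjusted p = 0.0461).

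Cd81 encodes a tetraspanin, a membrane organiser that is present on T cells. It also had a count in 36 cells, with 13.2% and 6.82% on the imiquimod plates against 21.0% and 25.9% on the vehicle plates, without overlap (9.99% ± 4.48 against 23.4% ± 3.46, exact p = 0.333). Of the 36 cells, 16 held under 10 CPM, and 15 of these were vehicle cells. At 10 CPM or more the plates overlapped, with 8.67% ± 2.62 in imiquimod and 10.9% ± 1.69 in vehicle. Summed levels overlapped as well, with 462 and 111 CPM for the imiquimod plates beside 182 and 126 CPM for the vehicle plates. On the log2 scale the difference was 0.90 ± 1.45 (edgeR adjusted p = 0.885), and it was -0.38 without imiquimod plate 1.

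**Figure D1:**
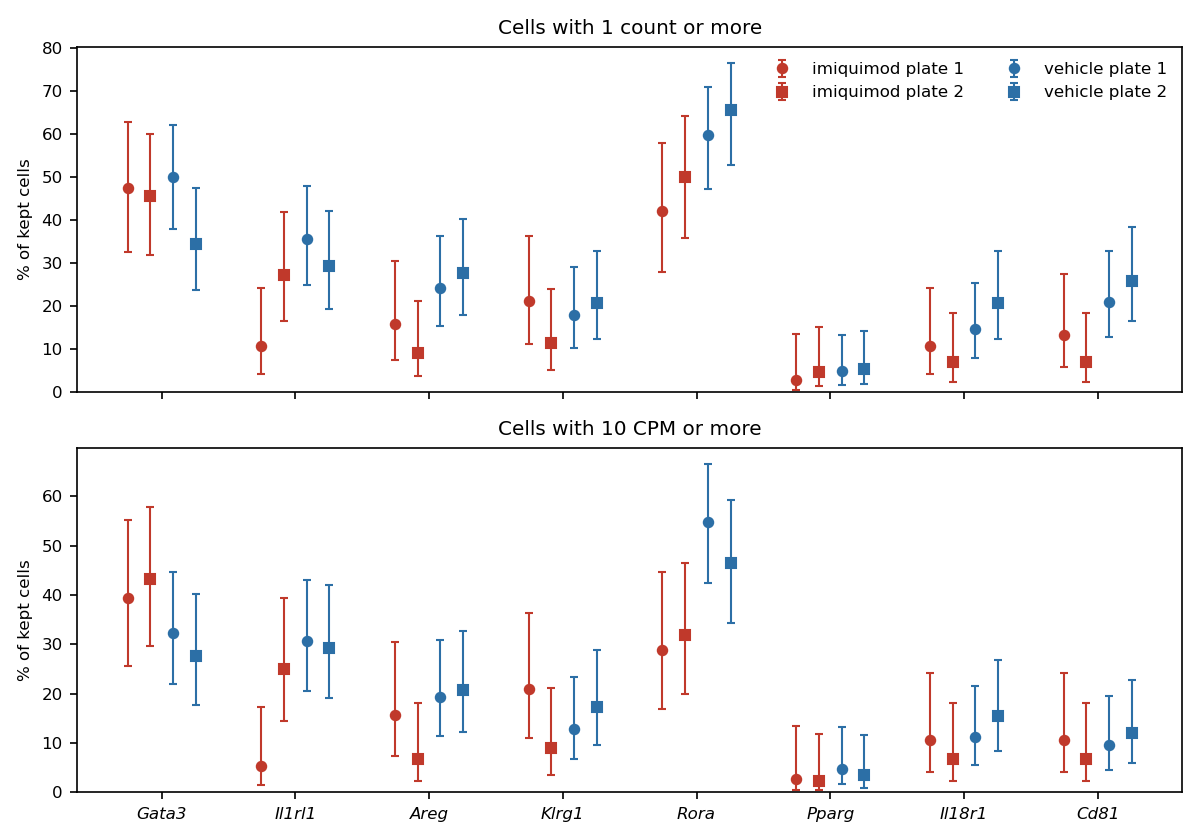
Share of kept cells (%) with 1 count or more (top) and with 10 CPM or more (bottom) of each gene on the 2 imiquimod plates (red) and the 2 vehicle plates (blue), with 95% Wilson intervals that cover counting error only. At 1 count the imiquimod plates lie below the vehicle plates for Il1rl1, Areg, Rora, Pparg, Il18r1 and Cd81, as for 54.7% of genes. At 10 CPM they lie below them for Il1rl1, Areg, Rora, Pparg and Il18r1, as for 52.4%. For Gata3 they lie above them at 10 CPM, as for 5.75%. These background shares are over genes found in at least 10% of kept cells at each threshold.

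**Figure D2:**
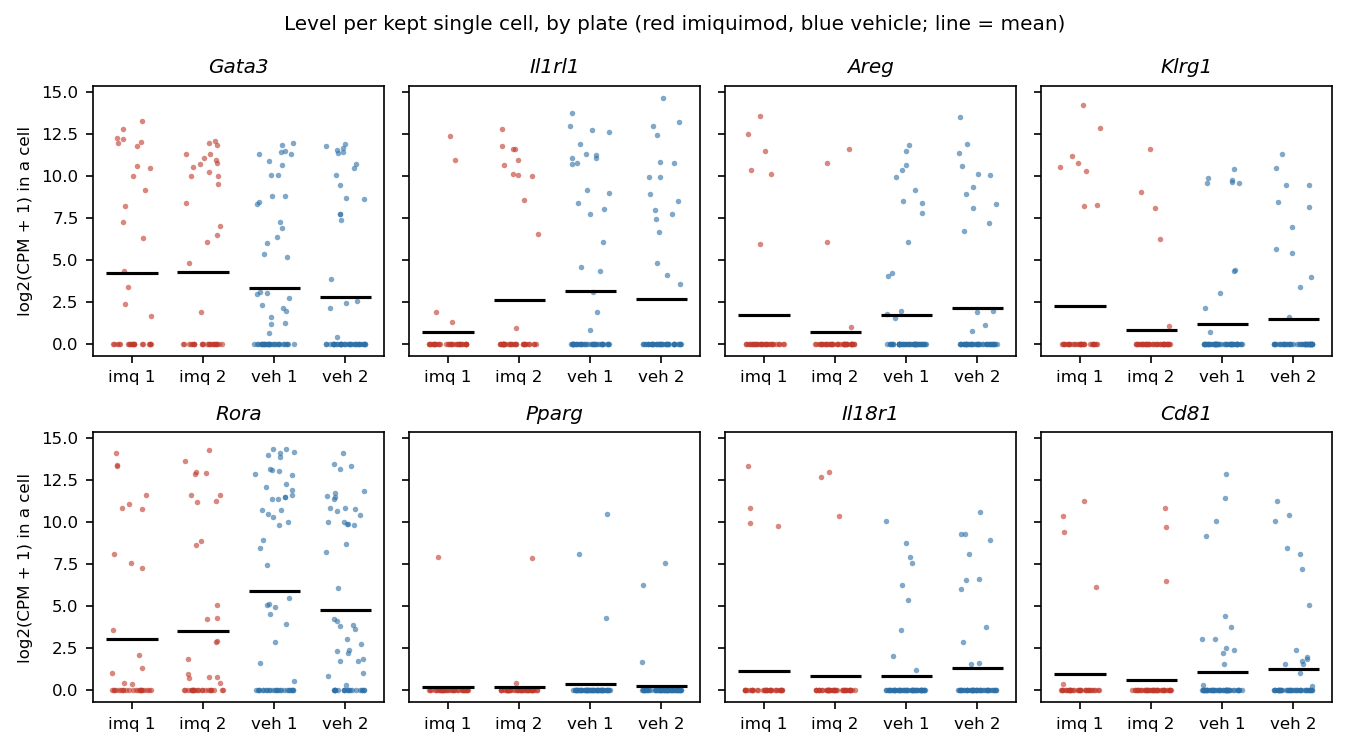
Level of each gene in every kept cell, as log2(CPM + 1), by plate (imq, imiquimod; veh, vehicle), with the mean over all kept cells of the plate as a line. For every gene but Rora most cells lie at 0, and the cells above 0 spread over several powers of 10, with 7 imiquimod cells of Il18r1 all above 884 CPM.

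Per length of annotated exons, the level could be compared between genes. Areg had the highest mean over the 4 plates, at 271 ± 137 CPM per kb (SD, n = 4), followed by Gata3 at 232 ± 155 and Klrg1 at 227 ± 232. Rora stood at 148 ± 72.3, Il1rl1 at 75.6 ± 14.2, Cd81 at 68.2 ± 31.9, Il18r1 at 42.8 ± 32.9 and Pparg at 4.51 ± 1.36 CPM per kb. Neighbours in this order did not differ beyond their spread from Areg to Rora, nor from Il1rl1 to Il18r1. Rora lay above Il1rl1 on 4 of 4 plates (difference 72.0 ± 59.0 CPM per kb), and Il18r1 lay above Pparg on 4 of 4 (38.3 ± 33.7). With 4 of 4 plates one way, an exact two-sided sign-flip permutation gives its smallest p, 1 in 8. Exons of Gata3, Rora and Cd81 overlap those of other annotated genes on the opposite strand, and Gata3 those of 9230102O04Rik on its own strand, so with the strand setting unknown their reads cannot be told apart there.

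Most cells held 1 to 3 of the 8 genes. No member had a count in 33 cells, 1 in 53, 2 in 45, 3 in 37, 4 in 21, 5 in 9 and 6 in 4, and no cell held 7 or 8. The mean number was 1.63 and 1.61 on the imiquimod plates, against 2.27 and 2.29 on the vehicle plates. It moved with the number of genes detected, whose median was 681 in cells with no member, 1042 in cells with 1 or 2, and 1937 in cells with 3 or more. The part of that difference in the shares was not tested.

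Gata3, Il1rl1 and Areg together had a count in 12 cells (5.94%), of which 1 and 1 lay on the imiquimod plates and 6 and 4 on the vehicle plates. Gata3 alone of the 3 was found in 46 cells, Il1rl1 alone in 21 and Areg alone in 10. Pairs without the third gene comprised 17 cells with Gata3 and Il1rl1, 14 with Gata3 and Areg, and 5 with Il1rl1 and Areg, and 77 cells (38.1%) had none of the 3. Of the 79 cells with Il1rl1 or Areg, 43 had Gata3 (54.4%), against 46 of the 123 cells with neither (37.4%). The 12 cells with all 3 had a median of 2366.5 detected genes, against 835 in the 77 with none.

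Within plates, detection of one gene was set against detection of another for the 26 of 28 pairs with at least 3 cells in each class on every plate. The share of the second gene was higher in cells with the first in 23 of the 26 pairs (88.5%) by the mean over plates, and on 4 of 4 plates in 6 pairs (23.1%). Over every gene detected in at least 10% of kept cells, split by the same 6 genes, the background was 79.9% and 22.8%, and the share of pairs higher on 4 of 4 plates was close to that of all genes. Pparg, in 4.46% of kept cells, lies outside that background. Split by Gata3, 43.8% of genes were higher on 4 of 4 plates, and split by Il1rl1 11.0%. Each of these 6 had the smallest exact two-sided sign-flip p that 4 plates allow, 1 in 8, and an adjusted p of 0.542 over the 26 pairs. Areg was detected in 27.8%, 15.0%, 29.0% and 45.0% of cells with Gata3 on imiquimod plates 1 and 2 and vehicle plates 1 and 2, against 5.00%, 4.17%, 19.4% and 18.4% of cells without Gata3. The difference was 17.5 ± 8.48 percentage points (SD, n = 4 plates). Cd81 was detected in 22.2%, 15.0%, 25.8% and 35.0% of cells with Gata3, against 5.00%, 0%, 16.1% and 21.1% of cells without it in the same plate order, a difference of 14.0 ± 3.17 points. Here the smallest difference was on vehicle plate 1.

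Areg was found in 25.0%, 16.7%, 31.8% and 41.2% of cells with Il1rl1, against 14.7%, 6.25%, 20.0% and 22.0% of cells without it (12.9 ± 4.25 points). Klrg1 was found in 27.8% of cells with Il1rl1 and 13.5% of cells without it (14.3 ± 7.70 points). The other pairs of the same sign on every plate were Pparg by Gata3 (5.86 points) and Il18r1 by Rora (6.00 points). Il1rl1 by Gata3 was uneven, with 5.56%, 25.0%, 51.6% and 35.0% of cells with Gata3 against 15.0%, 29.2%, 19.4% and 26.3% of cells without it. The signs differed between treatments, negative on both imiquimod plates and positive on both vehicle plates, and without vehicle plate 1 the mean of 6.83 points became -1.64.

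Cells with Gata3 had more detected genes than cells without it (median 1613 against 876) and more counts (2097874 against 999473). Comparing cells above each plate's median of genes detected with one another, and likewise those at or below it, the difference was 6.55 points for Areg by Gata3, 10.0 points for Cd81 by Gata3, 9.26 points for Areg by Il1rl1 and 12.5 points for Klrg1 by Il1rl1, and 20 of 26 pairs were positive (76.9%), against 59.8% over all genes. In the same comparison Pparg by Gata3 gave 4.21 points and Il18r1 by Rora 1.60 points. At 10 CPM or more in both genes, 20 of the 20 pairs that could be formed were positive, against 92.1% over all genes at that threshold. In cells of at least 1000 genes, 4 of the 6 pairs could be formed and none kept its sign on 4 of 4 plates. Areg by Gata3 (14.5 points), Cd81 by Gata3 (3.84 points) and Il18r1 by Rora (7.50 points) were positive on 3 plates, and Pparg by Gata3 (3.76 points) on 2. Correlations of log2(CPM + 1) between members, over 202 cells after removing plate and the number of genes detected, lay between -0.10 and 0.19 with a median of 0.03, and these points share libraries and depth.

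**Figure D3:**
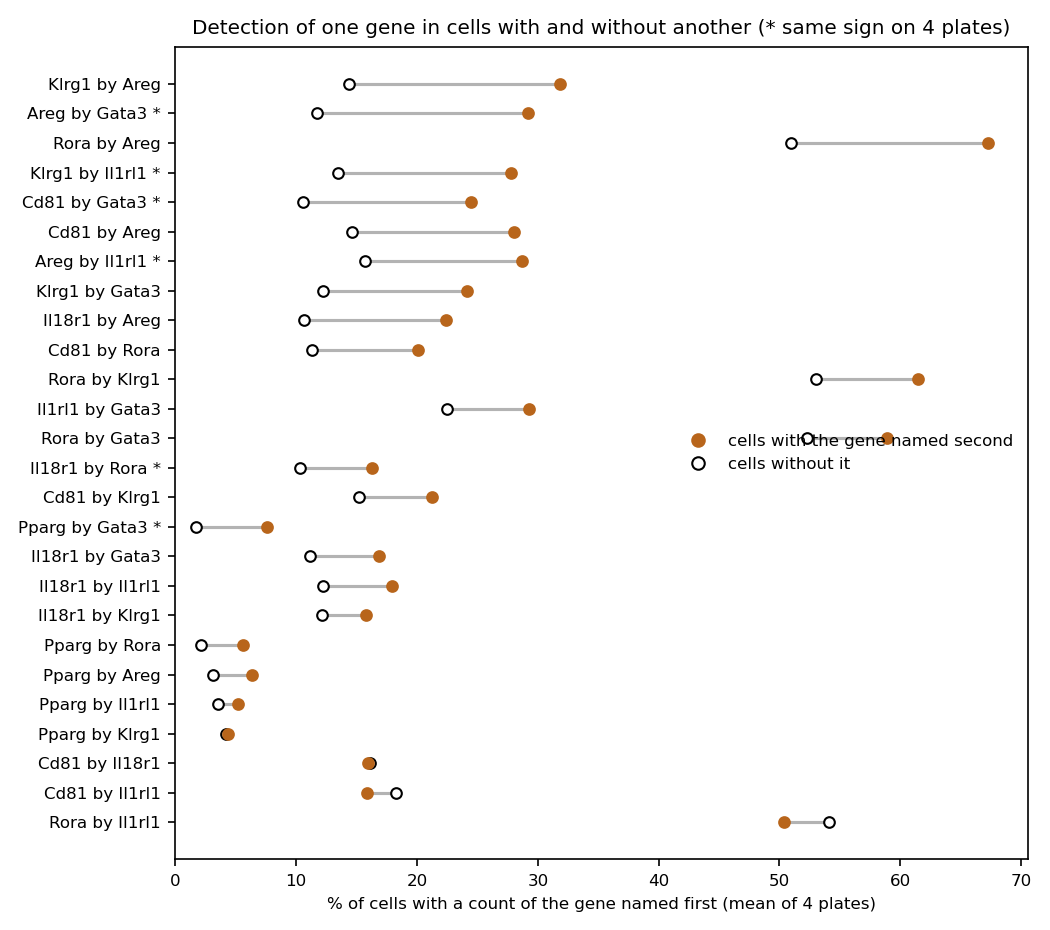
Share of cells (%, mean of 4 plates) with a count of the gene named first on each line, among cells with the gene named second (filled) and among cells without it (open), for 26 pairs. The filled point lies to the right in 23 pairs, and an asterisk marks the 6 with the same sign on 4 plates.

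Levels were compared by summing counts within each plate over cells with and cells without Gata3, Il1rl1 or Areg, with plate as a block. edgeR called 0 of 8941 genes by Gata3 (0%), 0 of 8747 by Il1rl1 (0%) and 0 of 8751 by Areg (0%), with 425, 359 and 221 at an unadjusted p under 0.05. Cd81 stood at 629, 193, 273 and 223 CPM in cells with Gata3 on imiquimod plates 1 and 2 and vehicle plates 1 and 2, against 1.84, 0, 0.317 and 69.9 CPM in cells without. It was higher with Gata3 on 4 of 4 plates (edgeR unadjusted p = 0.0256, adjusted p = 1), and DESeq2 called it (adjusted p = 3.58e-06), along with 22% of genes. With 3 of the 4 sums without Gata3 near 0, Cd81 passed the filter on low counts through the cells with Gata3, and the size of its log2 fold change depended on the setting, at 9.00 ± 3.97 as counted and 4.68 ± 3.04 with cells thinned to 200000 counts. Of the 20 cells with 10 CPM or more of Cd81, 16 had a count of Gata3, and 13 held 10 CPM or more of it. With the classes split at 10 CPM of Gata3, the log2 fold change was 2.93 ± 2.31.

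Areg stood at 1056, 287, 281 and 262 CPM in cells with Gata3, against 1.62, 5.25, 117 and 400 CPM in cells without, higher on 3 of 4 plates (3.66 ± 2.76, edgeR adjusted p = 1). Pparg, with 7 of its 9 cells holding Gata3, had 19.4, 22.5, 26.2 and 17.4 CPM in cells with Gata3, against 0, 0.0255, 0 and 4.62 CPM in cells without. It too passed the filter through the cells with Gata3, and its log2 fold change was 9.57 ± 4.35 as counted, 5.86 ± 4.61 with the classes split at 10 CPM and 4.01 ± 3.81 with thinned cells (edgeR adjusted p = 1 in each). Il1rl1 went the other way in level. It had 288, 493, 609 and 287 CPM in cells with Gata3, against 1632, 593, 700 and 483 CPM in cells without, lower on 4 of 4 plates (-0.90 ± 1.18, edgeR adjusted p = 1). The sign turned with cells thinned to 200000 counts (0.11) and in limma on mean log2 levels (0.89). Rora was lower with Gata3 on 3 of 4 plates (-1.01 ± 0.54, edgeR adjusted p = 1), and in cells of at least 1000 genes its value was 0.02.

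Between cells with and without Il1rl1, Gata3 differed by 0.45 ± 1.03 and Areg by -0.20 ± 1.86 on the log2 scale (edgeR adjusted p = 1 for both), with Areg at 0.17 without imiquimod plate 1. In cells with Areg, Gata3 stood at 3166, 971, 799 and 966 CPM, against 2361, 833, 489 and 296 CPM in cells without Areg. It was higher on 4 of 4 plates (0.76 ± 0.87, edgeR adjusted p = 1), and DESeq2 called it (1.22, adjusted p = 0.048) with 18.9% of genes. Il1rl1 differed by -0.20 ± 1.35 between the same cells, and by 0.14 without vehicle plate 2.

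**Figure D4:**
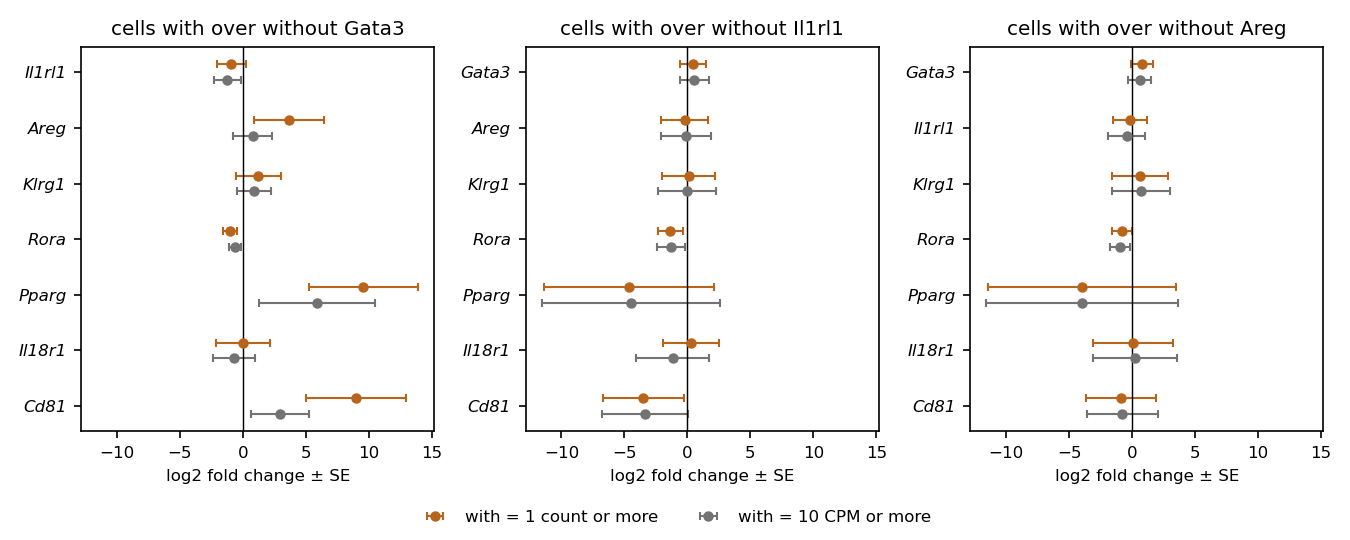
Log2 fold change ± SE of the other members in summed counts of cells with over cells without Gata3, Il1rl1 or Areg, with the class split at 1 count (orange) or at 10 CPM (grey). Cd81 and Pparg by Gata3 lie farthest to the right at 1 count (9.00 and 9.57), over sums near 0 on 3 plates, and nearer to 0 at 10 CPM.

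Markers of other cell types were set beside these classes. Any of 7 ILC2 markers reached 10 CPM in 16 of 55 cells with Il1rl1 (29.1%), against 14 of 147 without (9.52%). With Gata3 the share was 18.0%, against 12.4% without, and with Areg 19.5%, against 13.7%. Cells with Il1rl1 also had more detected genes (median 1607 against 1067). Other lists were higher with Il1rl1 too, such as fibroblast (12.7% against 5.44%) and mast cell markers (12.7% against 6.80%). Endothelial, neutrophil, keratinocyte and B cell markers were not. The summed ILC2 markers were 142, 187, 770 and 239 CPM in cells with Il1rl1. In cells without it they were 461, 320, 571 and 60.5 CPM, and the classes overlapped. Il5 and Il13 were at 0 in the cells with Il1rl1, and Il5, Il17rb and Arg1 were at 0 in the cells without. Over all kept cells Il13 had a count in 1 cell, and Il17rb and Arg1 in 3 each. The rest of the ILC2 list were Hlf, with a count in 23 cells, Il9r in 8 and Calca in 4. At 10 CPM or more, Hlf was in 20 cells, Il9r in 4 and Calca in 3. T cell markers reached 10 CPM in 39 of the 55 (70.9%), against 78 of the 147 (53.1%). Of the mast cell list, 6 of 8 genes were at 0 in both classes, and the list, with Kit and Cpa3, summed to at most 538 CPM in cells with Il1rl1 and 59.5 CPM in cells without. The part of these transcripts in the differences was not tested.

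Of the 8 genes, 7 were detected in a larger share of the 75 cells with a Foxp3 count than of the 127 without, as 91.7% of 4640 genes were, and Cd81 was not. Gata3 had a count in 60.0% of cells with Foxp3, against 34.6% of cells without, and the order held on 3 of 4 plates. On imiquimod plate 1 it was the other way for Gata3, Il1rl1, Areg, Pparg and Cd81, with Areg in 0 of 14 cells with Foxp3 and 6 of 24 without. Rora was also lower with Foxp3 on imiquimod plate 2 (35.7% against 56.7%), and Cd81 on vehicle plate 1 (16.7% against 23.7%). Over all plates the shares were 33.3% against 23.6% for Il1rl1, 28.0% against 15.7% for Areg, 24.0% against 14.2% for Klrg1, and 60.0% against 53.5% for Rora. For Il18r1 they were 21.3% against 9.45%, for Pparg 8.00% against 2.36%, and for Cd81 17.3% against 18.1%. These shares pool the cells of 4 plates and have no test, and cells with Foxp3 also had more detected genes (median 1993 against 945).

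The 3 genes whose level was most like that of each member were taken from 1133 genes detected in at least 20% of kept cells, by Pearson's r of log2(CPM + 1) after removing plate and the number of genes detected, over 202 cells. For Il1rl1 they were Lrch3 (0.38), the tumour necrosis factor receptor gene Tnfrsf1b (0.35) and the interleukin-7 receptor gene Il7r (0.33). Areg was closest to Tnfrsf9, which encodes the costimulatory receptor 4-1BB (0.33), Ifrd1 (0.32) and the ferritin gene Ftl1 (0.28). Gata3 was closest to Ppp1ca (0.28), Rad9a (0.26) and the phosphatase gene Ptpn22 (0.25), and Klrg1 to Set (0.34), Dusp1 (0.31) and Spats1 (0.31). For Rora they were Nfkb1 (0.34), Dock8 (0.27) and Camk2b (0.27), and for Il18r1 Uqcrh (0.29), Nop53 (0.28) and Polr2a (0.25). Cd81 went with Sf3a1 (0.33), Eif3a (0.28) and the ferritin pseudogene Ftl1-ps1 (0.28), and Pparg, with 9 cells, with Catspere1 (0.39), Zranb3 (0.34) and Dip2c (0.27). All of these correlations are weak, and with counts scored as present or absent 6 of the 24 genes were named again.

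Wells of 10 cells gave a more even picture than single cells. Gata3, Areg and Rora had a count in 16 of 16 wells, Il1rl1, Klrg1 and Il18r1 in 14, Cd81 in 13 and Pparg in 7. Gata3, Il1rl1 and Areg were all present in 14 of 16, and 12 wells held 7 or 8 of the members while 4 held 5 or 6. Median numbers of detected genes were 6623.5 in these wells and 1101 in kept single cells.

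Gata3 ranged between 106 and 2695 CPM over the 16 wells, with a median of 1116, and averaged 1055 ± 773 CPM (SD, n = 16 wells), against 619 CPM over kept single cells. Areg ranged between 32.8 and 2869 CPM with a median of 483 and averaged 670 ± 710 CPM, against 315 CPM in single cells. Il1rl1 ranged between 0 and 956 CPM with a median of 204 and averaged 301 ± 310 CPM, against 693 CPM in single cells. Rora averaged 1202 ± 751 CPM, against 1915 CPM in single cells, and its lowest well held 1.41 CPM. No label gives these wells a treatment, so the 2 kinds of well were not tested against each other. The running numbers in the titles place each set of ten-cell and empty wells within the range of 1 plate, and they were not used to assign a treatment.

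The medians of the 4 sets of ten-cell wells show where a set stood apart. Rora had set medians of 1393, 2075, 443 and 1310.2 CPM, and Cd81 197, 127, 16.4 and 399 CPM, both lowest in set 3. Set 3 also had the fewest detected genes, with a median of 4693, against 8132.5, 7524 and 6223.5 in sets 1, 2 and 4. Areg had set medians of 483, 206, 951 and 855 CPM, lowest in set 2. Klrg1 averaged 291 ± 296 CPM over 16 wells, Il18r1 169 ± 165 CPM and Cd81 169 ± 181 CPM, and Pparg reached 710.4 CPM in 1 well of set 2 with a median of 0 over the 16.

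**Figure D5:**
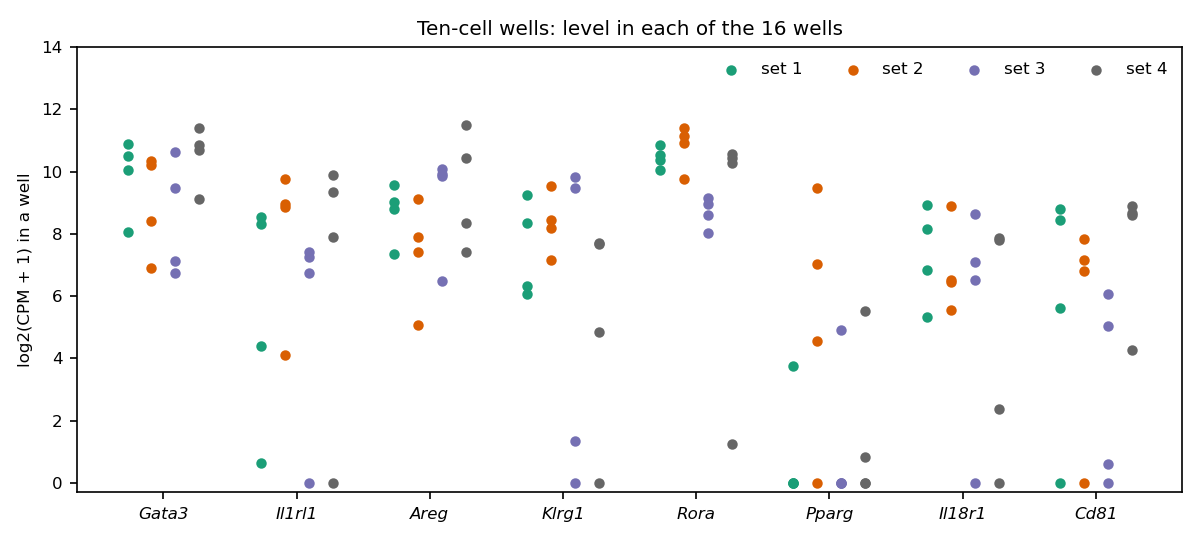
Level of each gene, as log2(CPM + 1), in each of the 16 ten-cell wells, 4 wells in each of 4 sets, with no treatment given in the labels. Gata3, Areg and Rora are above 0 in all 16 wells, and Pparg is above 0 in 7.

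Other genes of the same pathways were tested in the treatment comparison from lists, and 0 members of any list passed edgeR's test. Signalling genes of the interleukin-33 and interleukin-18 receptors had 4 of 11 positive log2 fold changes (median -0.65), against 46.6% of all genes positive and a median of -0.26. Of the highest of these, the decoy receptor Il1r2 had 448 and 115 CPM in imiquimod against 361 and 296 CPM in vehicle (-0.22 ± 1.22). EGF family ligands and their proteases had 5 of 10 genes tested and a median of -0.87, with Rhbdf2, an adaptor of the protease ADAM17, at -1.99 ± 3.10. Tissue Treg transcription factors had 7 of 14 positive and a median of -0.01, with Ikzf2, which encodes Helios, at 1856 and 2797 CPM in imiquimod against 4036 and 3259 CPM in vehicle (-0.65 ± 0.43, edgeR adjusted p = 0.589).

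PPAR partners and lipid genes had 7 of 11 positive and a median of 0.59. Dgat1, an enzyme of triglyceride synthesis, had 2922 and 1499 CPM in imiquimod against 647 and 715 CPM in vehicle (1.70 ± 0.61, edgeR adjusted p = 0.42), without overlap. Tetraspanins and their partners had 9 of 10 positive and a median of 0.85, with Cd82 at -0.36 ± 0.74 and Cd53 at 1.01 ± 1.01. Of 10 killer lectin-like receptors 1 was tested, Klrb1b, at 0 and 0.0107 CPM in imiquimod against 0.162 and 11.8 CPM in vehicle (edgeR adjusted p = 0.436). Of 8 type 2 and repair cytokines, Il10 (0.43 ± 1.00) and Tgfb1 (2.12 ± 2.25) were tested.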

How the data were processed

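Single-cell, ten-cell and empty wells were read from the authors' deposited counts of reads per gene and well. The submitters' processing notes name the genome build mm39 and list SAMtools 1.12, STAR 2.7.3a and Trimmomatic 0.39; the counting tool, strand setting and annotation are not given in the sources used here. Per the labels' protocols, oligo dT cDNA was amplified for 24 cycles and tagmented libraries for 12, with no molecular identifiers mentioned. Wilson intervals on shares of cells cover counting error only, not the spread between plates. No 2 wells with a count were identical, and no doublet caller was run on sorted wells.

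Counts were summed over kept cells per plate and tested with edgeR 4.0.16 (filterByExpr, TMM, quasi-likelihood test, Benjamini-Hochberg adjustment over all genes tested, threshold 0.05). Log2 fold changes are imiquimod over vehicle or cells with over cells without a gene; the fits of cells with and without a gene had plate as a block. Shares were compared by exact permutation over plates. Alternatives were DESeq2 1.42.0, limma 3.58.1 on mean log2(CPM + 1), other scalings, filters, thinning and leaving out each plate. Fits were tested on simulated data. Exon lengths came from GENCODE M21 of GRCm38, and promoter windows from RefSeq. The 8 members and all lists were chosen with earlier results of these data known. The rule for named genes takes the 8 members, Foxp3, for each member the 3 genes of highest correlation, and up to 3 genes of highest mean level per list.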

Additional observations from a re-analysis of the deposited data

Results flagged for a closer look

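Within the 4 wells of each set of ten-cell wells, the highest or lowest well of each member was checked for its distance from the others. Of 32 combinations of gene and set, 5 had a well far from the other 3. Chance gives about 1 in 20 for normally distributed values. That rate does not apply to the 3 combinations of Pparg, where the other wells were at or near 0. It may not hold for Areg and Il18r1 either, whose means over the 16 wells were 670 ± 710 and 169 ± 165 CPM (SD). For Areg in set 3 the lowest well held 89.5 CPM, and the next held 932 CPM. Il18r1 in set 2 had its highest well at 474 CPM and the next at 91.1 CPM. Pparg had 1 well apart in 3 sets, at 12.4 CPM in set 1 and 29.0 CPM in set 3, where the other 3 wells were at 0, and at 45.4 CPM in set 4, where the next held 0.802 CPM.

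Of 35 differences between cells with and without a gene, 7 pointed one way on both imiquimod plates and the other way on both vehicle plates, 6 of them among the 26 pairs of shares. Over genes detected in at least 10% of kept cells, split by the same members, 11.7% of share differences did so, and 20.2% when split by Il18r1. Pparg, in 4.46% of kept cells, lies outside that background. The difference between treatments itself was not tested, since 2 plates against 2 cannot give an exact p below 0.333. Rora was detected less often in cells with Il1rl1 on the imiquimod plates (-19.1 and -22.9 percentage points) and more often on the vehicle plates (20.2 and 7.17 points), a gap of -34.7 points that rests on 4 and 12 imiquimod cells with Il1rl1. Il1rl1 itself, by Gata3, gave -9.44 and -4.17 points in imiquimod and 32.3 and 8.68 points in vehicle (gap -27.3). Cd81 by Il18r1 had a gap of -21.7 points, with 4 and 3 imiquimod cells with Il18r1. Pparg, with 9 cells in all, had gaps of -12.6 points by Il1rl1, -14.6 by Areg and -8.81 by Klrg1. No imiquimod cell with Il1rl1, Areg or Klrg1 had a count of Pparg, so its negative differences there rest on zeros. The level of Il1rl1 in cells with over cells without Areg had a mean log2(CPM + 1) difference of 0.33 in imiquimod and -0.75 in vehicle, a gap of 1.08.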

How the results depend on the processing

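No paired analysis was possible because plates are nested in treatments, and the well numbers that plates share only name wells. Of 356 values under alternatives, 296 were classed as unchanged. A log2 fold change had to keep its sign and its side of the threshold, and a share or pair difference its sign. A count of genes or pairs had to stay close to that of the main setting. Genes called by treatment numbered 0 with edgeR, 3740 with DESeq2, 9 without the filter on low counts, and 0 to 794 with a plate left out (794 without imiquimod plate 2, 215 without imiquimod plate 1). By Gata3 DESeq2 called 1969 genes, thinning gave 1 and leaving out a plate 0 to 2. By Il1rl1 DESeq2 called 1954, and by Areg DESeq2 called 1656 and limma 2. The median log2 fold change of all genes by treatment was -0.26 with TMM, 0.11 with DESeq2 size factors and -0.78 with library totals, and positive values made up 46.6%, 51.3% and 39.5%.

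In the treatment comparison the sign of Il1rl1 (0.35) turned with library totals (-0.20), limma (-1.23) and thinning (-1.20), that of Areg with limma (-0.74), that of Il18r1 with limma (-0.0866) and that of Cd81 with limma (-0.37) and thinning (-0.44). Rora turned with DESeq2 size factors in edgeR and in DESeq2 (0.15 in both) and without the highest cells (0.0228). Pparg turned with library totals (-0.53), limma (-0.12), no filter (-0.00181), cells of at least 1000 genes (-1.02), thinning (-1.47) and without the highest cells (-8.95). With a plate left out, they ran between 0.87 and 2.59 for Gata3, -0.53 and 1.69 for Areg, -0.17 and 3.06 for Klrg1, -0.82 and 0.40 for Rora, -0.36 and 0.46 for Pparg, and -0.38 and 1.69 for Cd81.

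Between cells with and without Gata3, Il1rl1 turned with limma (0.89) and thinning (0.11), and Rora with limma (1.25) and at 1000 genes (0.0226). By Il1rl1, Gata3 turned with thinning (-0.33), and Areg with DESeq2 size factors and DESeq2 (0.22 in both) and limma (1.11). By Areg, Il1rl1 turned with DESeq2 size factors and DESeq2 (0.27 in both), limma (1.57) and at 1000 genes (0.0349). The share difference of Gata3 turned to -5.17 points over all single-cell wells, that of Klrg1 to 6.97 points at 1000 genes and that of Pparg to 0.0563 points at 410000 counts. Of the 24 most alike genes, 6 were named again from presence or absence and 21 without adjustment for genes detected. With a plate left out, the share difference ran between -3.59 and 11.9 points for Gata3 and -7.85 and 1.84 for Klrg1, the pair difference of Il1rl1 by Gata3 between -1.64 and 12.3, the log2 fold change of Areg by Il1rl1 between -0.55 and 0.17, and that of Il1rl1 by Areg between -0.45 and 0.14. The causes were not tested.

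The number of plates limits the exact tests: 2 plates against 2 cannot reach an exact p below 0.333, and 4 plates cannot go below 1 in 8. Depth also limits what could be seen, and cells with few genes hold few members. Reads without molecular identifiers are not independent molecules.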
